A study of Homo sapiens with 8 samples.

Results

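A set of 10 genes of the integrated stress response were followed in DLD1 cells in which UHRF1 was depleted, histone deacetylases were inhibited, or both. They were NUPR1, DDIT3, DDIT4, ATF3, ATF4, CHAC1, TRIB3, ASNS, SESN2 and PSAT1. Members were taken by gene name among the non-control probes of the arrays, which gave 15 of 50599 probes and 10 of 36337 gene names. ATF3 had 4 probes, CHAC1 and PSAT1 had 2 each, and each other gene had 1 probe. The genes were selected on function with results of these same arrays known, among them the opposite changes of NUPR1 with UHRF1 depletion under mock and under TSA, so their levels and changes are given below as a description and without p-values.

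DLD1 is an established human colorectal adenocarcinoma line, and its RNA was measured on 8 one-colour Agilent arrays in 4 groups of 2. Cells received a control siRNA (siCONT) or an siRNA against UHRF1 (siUHRF1), the protein that recruits the maintenance DNA methyltransferase to replicated DNA. After 48 h they were given ethanol (mock) or trichostatin A (TSA, 300 nM), which blocks histone deacetylases, for 24 h more. The groups were siCONT with mock, siUHRF1 with mock, siCONT with TSA and siUHRF1 with TSA, and all of them had been transfected with an siRNA. In each siUHRF1 group the 2 arrays carried 2 different siRNAs, called siRNA 1 and siRNA 2, so the spread in those groups includes the difference between siRNAs. The study used a single cell line here, and whether same-group arrays came from separate cultures was not stated, so the spread may be technical.

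The arrays of a siCONT group differed by little more than the noise between spots, with ratios of 1.10 and 1.16 against 13.7 and 11.6 between the siRNAs of a siUHRF1 group. The siCONT arrays of an agent were therefore counted as 1 sample in all means, and no SD is given for them. Tests that treat them as replicates take part of their spread from near duplicates, so counts with those arrays averaged are given beside the main ones. The SE values below come from the fit to all 8 arrays, which treats them as replicates. They therefore may understate the uncertainty, most of all for TSA in siCONT cells. All mock arrays lay in slide row 1 and all TSA arrays in slide row 2. All siCONT arrays lay in slide columns 1 and 2 and all siUHRF1 arrays in columns 3 and 4. Neither TSA nor UHRF1 depletion can therefore be told apart from slide position. On each array 43.3% to 48.0% of the probes were detected above background. The targeted gene, UHRF1, was lower with siUHRF1 by 1.83 on the log2 scale under mock and by 2.87 under TSA (limma, adjusted p = 0.012 and 0.00234, and 0.252 and 0.0535 with the siCONT arrays averaged). All 7 colon epithelial markers were above background on all 8 arrays. Of 7 blood, stroma and vessel markers with a probe, 4 were on no array, while COL1A1, PDGFRB and VWF were above background on 4, 3 and 6 arrays.

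The integrated stress response is the pathway in which several kinases phosphorylate the translation factor eIF2alpha. General protein synthesis then slows while the mRNA of the transcription factor ATF4 is translated more, and ATF4 switches on genes for amino acid supply and for coping with stress. Among its targets are the transcription factors DDIT3 (CHOP) and ATF3, the pseudokinase TRIB3, the glutathione-degrading enzyme CHAC1, the amino acid enzymes ASNS and PSAT1, and the mTORC1 inhibitors SESN2 and DDIT4. NUPR1 is a small stress-induced chromatin-associated protein that is often found among the ATF4-dependent genes.

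Promoter windows of RefSeq (GRCh38.p14, 250 bases before to 50 bases after the annotated start) were found for 9 of the 10 genes, and NUPR1 was not among them. The windows were searched on both strands for TGATGNAA, the core of the C/EBP-ATF response element to which ATF4 dimers bind. It occurred in ASNS, ATF3 and CHAC1, that is, in 3 of 9 genes, against 4.46% of all 27305 genes with a window. These sequences are shown because the genes that hold the core were among those at higher level with TSA below. SESN2 and PSAT1 were also higher with TSA in siCONT cells, and their windows held no match. Capitals mark the core, which lies on the gene's strand in ASNS and ATF3 and on the opposite strand in CHAC1. The windows are chr7:97872359-97872658 (minus strand) for ASNS, chr1:212565157-212565456 (plus strand) for ATF3, and chr15:40953221-40953520 (plus strand) for CHAC1.
ASNS: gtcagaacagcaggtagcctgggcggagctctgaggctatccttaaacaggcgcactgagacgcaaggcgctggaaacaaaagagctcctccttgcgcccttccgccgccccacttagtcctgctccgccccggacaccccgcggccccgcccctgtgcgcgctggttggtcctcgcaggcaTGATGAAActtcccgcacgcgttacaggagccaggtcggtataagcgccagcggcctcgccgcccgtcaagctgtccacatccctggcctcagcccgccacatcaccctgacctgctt
ATF3: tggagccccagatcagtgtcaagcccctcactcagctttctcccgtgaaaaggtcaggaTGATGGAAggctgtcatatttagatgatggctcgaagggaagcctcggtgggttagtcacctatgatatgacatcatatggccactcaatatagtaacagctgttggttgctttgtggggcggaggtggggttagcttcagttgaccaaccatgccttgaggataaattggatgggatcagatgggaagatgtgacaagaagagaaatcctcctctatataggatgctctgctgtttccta
CHAC1: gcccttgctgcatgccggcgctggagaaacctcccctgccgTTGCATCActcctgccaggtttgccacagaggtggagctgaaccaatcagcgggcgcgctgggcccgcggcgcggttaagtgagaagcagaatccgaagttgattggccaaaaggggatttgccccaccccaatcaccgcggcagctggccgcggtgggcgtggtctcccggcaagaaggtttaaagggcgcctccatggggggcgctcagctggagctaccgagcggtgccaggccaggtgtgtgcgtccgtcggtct

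Relative to the start the matches began at position −68 in ASNS, −191 in ATF3 and −209 in CHAC1. Second windows of ASNS and ATF3, at another annotated start, held no match. The cyclic AMP element TGACGTCA, the unfolded protein response element TGACGTGG and the endoplasmic reticulum stress element (ERSE) occurred in none of the members' windows, against 2.25%, 0.927% and 0.0916% of all genes. No motif overlapped another in these windows, and a match describes letters only.

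Levels are given as log2 of the processed intensity relative to the 75th percentile of the same array, so that 0 is the brightness of the probe at that percentile. They compare 1 probe between arrays and not different probes with each other. Because RNA was taken from whole cultures, fewer cells expressing a gene and less RNA per cell cannot be told apart. NUPR1 is described first. Its probe lies at chr16:28548821-28548880 of hg19 (minus strand), as annotated in the array files.

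NUPR1 was at 2.13 and 2.18 on the siCONT mock arrays and at 3.85 and 3.58 with siRNA 1 and siRNA 2 under mock. Under TSA it was at 1.92 and 1.91 with siCONT and at 0.28 and −0.36 with the siRNAs against UHRF1. The 4 groups did not overlap, but each siCONT group is a near-duplicate pair, and how many of all probes do the same was not counted. UHRF1 depletion alone thus went with the highest levels, the combination with the lowest, and TSA alone with a level close to the control.

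In log2 changes, NUPR1 was 1.56 (SE 0.22) higher with siUHRF1 under mock, which is 2.94-fold, with 1.69 for siRNA 1 and 1.42 for siRNA 2. TSA in siCONT cells went with a difference of −0.24 (SE 0.22). In TSA-treated cells siUHRF1 was lower by 1.96 (SE 0.22), with −1.63 and −2.28 for the siRNAs. TSA in UHRF1-depleted cells went with a change of −3.75 (SE 0.22), a 13.4-fold lower intensity. The difference between the effects of siUHRF1 under TSA and under mock was −3.51 (SE 0.32), and it was −3.33 with siRNA 1 and −3.70 with siRNA 2. Under median scaling that difference was −3.86, so no direction changed.

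**Figure D1:**
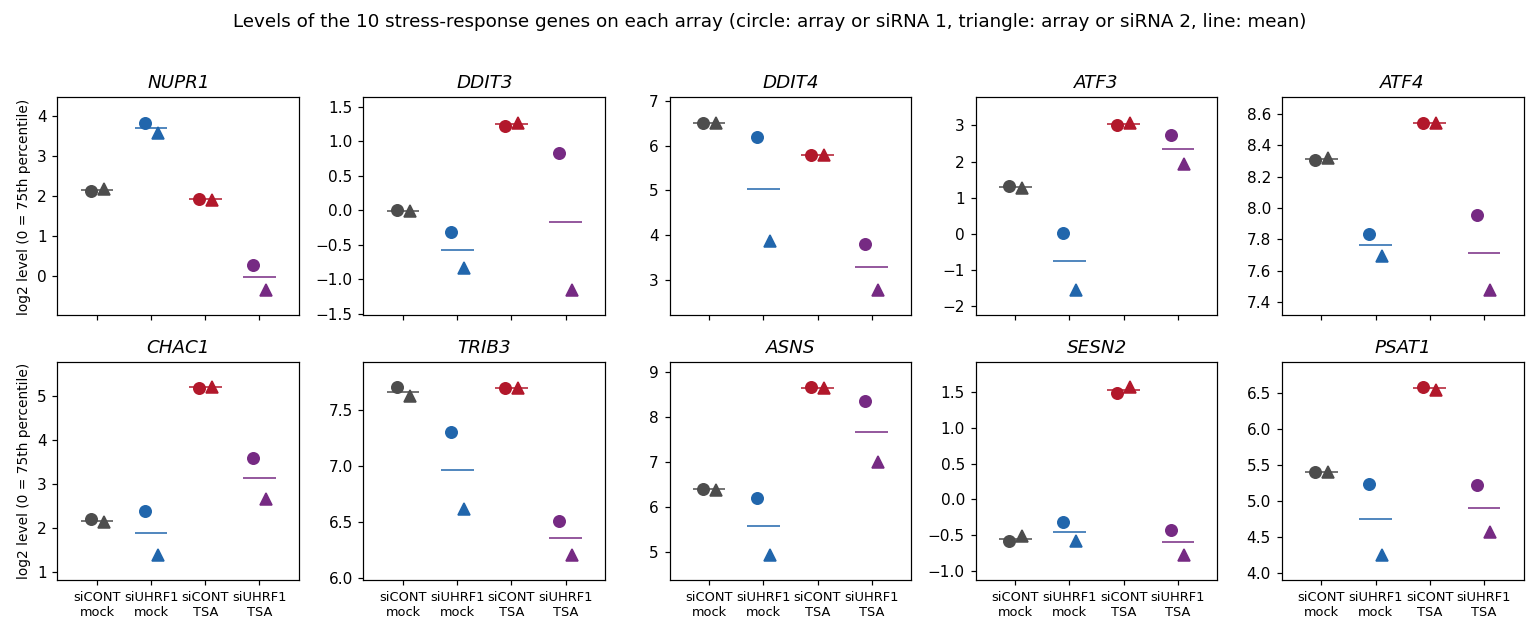
Level of each of the 10 genes on each of the 8 arrays (y axis, log2 as defined above, brightest probe, a separate scale for each gene) by group (x axis); circles are array or siRNA 1, triangles array or siRNA 2, and lines group means. NUPR1 was highest with siUHRF1 under mock and lowest with siUHRF1 under TSA. CHAC1, ASNS, SESN2, ATF3, PSAT1, DDIT3 and ATF4 were highest with siCONT under TSA, and TRIB3 was about equal in both siCONT groups.

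The other probes lie, in hg19, at chr22:39918577-39918636 (ATF4), chr1:212793856-212793915 (ATF3), chr12:57911200-57911526 (DDIT3), chr20:378107-378166 (TRIB3), chr15:41248631-41248690 (CHAC1), chr1:28608194-28608253 (SESN2), chr10:74035363-74035422 (DDIT4), chr7:97481461-97481520 (ASNS) and chr9:80944778-80944837 (PSAT1), each for the brightest probe.

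The transcription factors of the pathway were described next. ATF4, whose activity is set largely by translation of its mRNA, was at 8.31 and 8.32 with siCONT under mock and at 7.84 and 7.70 with the siRNAs against UHRF1. Under TSA it was at 8.54 and 8.55 with siCONT and at 7.96 and 7.47 with the siRNAs. Its mRNA was thus at about the same level with and without TSA in siCONT cells (log2 change 0.23, SE 0.18) and lower with siUHRF1 under either agent. These differences were −0.55 (SE 0.18) under mock and −0.83 (SE 0.18) under TSA. Under median scaling the latter was −1.18, past 2-fold, and siRNA 2 alone gave −1.07.

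ATF3, a stress-induced repressor of the same protein family, was at 1.32 and 1.26 with siCONT under mock and at 0.03 and −1.57 with the siRNAs against UHRF1 by its brightest probe. Under TSA it was at 3.01 and 3.08 with siCONT and at 2.74 and 1.94 with the siRNAs. TSA went with higher ATF3 in both backgrounds, by 1.76 (SE 0.52) in siCONT cells and by 3.11 (SE 0.52) in UHRF1-depleted cells. The larger value in the depleted cells started from the lower mock level, and the difference between them was 1.35 (SE 0.74). By the other ATF3 probes that difference was smaller. It was −0.10 (SE 0.34) for A_33_P3214105, 0.40 (SE 0.48) for A_24_P33895 and 0.30 (SE 0.32) for A_33_P3214096.

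DDIT3, the pro-apoptotic factor CHOP, had a siCONT mock mean of −0.01 and was at −0.32 and −0.84 with the siRNAs against UHRF1 under mock. Under TSA it was at 1.23 and 1.27 with siCONT, at 0.83 with siRNA 1 and at −1.16 with siRNA 2. Under TSA the siRNA arrays thus lay on either side of the siCONT mock level. With siCONT, TSA went with a change of 1.25 (SE 0.59), and siUHRF1 under TSA with −1.42 (SE 0.59), of which siRNA 1 gave −0.42 and siRNA 2 −2.41. Leaving out siRNA 2 turned the sign of the change between siUHRF1 with TSA and siCONT with mock from −0.16 to 0.83.

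TRIB3, the pseudokinase that binds ATF4 and damps the response, was at 7.71 and 7.63 with siCONT under mock and at 7.31 and 6.62 with the siRNAs. Under TSA it was at 7.70 on both siCONT arrays and at 6.51 and 6.21 with the siRNAs. Unlike CHAC1 or ASNS, it was no higher with TSA in siCONT cells (0.03, SE 0.24, and −0.02 under median scaling). With siUHRF1 it was lower by 1.34 (SE 0.24) in TSA-treated cells, 2.53-fold, and by 0.70 (SE 0.24) under mock.

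CHAC1, which breaks down glutathione, had the largest change with TSA in siCONT cells among the 10 genes. Its brightest probe was at 2.21 and 2.13 with siCONT under mock, at 2.38 and 1.40 with the siRNAs, at 5.18 and 5.19 with siCONT under TSA, and at 3.59 and 2.66 with the siRNAs under TSA. The siCONT TSA arrays stood above all others. The change with TSA was 3.02 (SE 0.40) in siCONT cells, 8.09-fold, and 1.23 (SE 0.40) in UHRF1-depleted cells, 2.35-fold. In TSA-treated cells siUHRF1 was lower by 2.06 (SE 0.40), 4.18-fold, and by 1.60 and 2.53 with the single siRNAs.

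SESN2, a leucine sensor that restrains mTORC1, had levels with both treatments close to those of the control. It was at −0.58 and −0.52 with siCONT under mock, at −0.32 and −0.59 with the siRNAs, at 1.48 and 1.57 with siCONT under TSA and at −0.43 and −0.78 with the siRNAs under TSA. Only the siCONT TSA arrays were above 0. TSA went with a change of 2.08 (SE 0.16) in siCONT cells, 4.22-fold, but of −0.15 (SE 0.16, and 0.01 with the percentile taken over detected probes) in UHRF1-depleted cells. The difference between the effects of siUHRF1 under TSA and mock was −2.22 (SE 0.23), with −2.18 and −2.26 for the siRNAs.

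DDIT4 (REDD1), the other mTORC1 inhibitor, did not follow SESN2. It was at 6.51 and 6.52 with siCONT under mock, at 6.20 and 3.87 with siRNA 1 and siRNA 2, at 5.78 and 5.79 with siCONT under TSA and at 3.79 and 2.76 with the siRNAs under TSA. Its level was thus lower, not higher, with TSA (−0.73, SE 0.73, in siCONT cells), and lowest in the combination. Against siCONT with mock the combination was lower by 3.24 (SE 0.73), 9.42-fold. The siRNAs differed widely under mock, with −0.31 for siRNA 1 and −2.64 for siRNA 2, and without siRNA 1 under mock the interaction of −1.03 became 0.13.

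The amino acid enzymes came last. ASNS, asparagine synthetase, was at 6.40 and 6.38 with siCONT under mock, at 6.19 and 4.93 with the siRNAs, at 8.67 and 8.64 with siCONT under TSA and at 8.35 and 7.00 with the siRNAs under TSA. Its change with TSA was of like size in both backgrounds, 2.27 (SE 0.54) in siCONT cells and 2.11 (SE 0.54) in UHRF1-depleted cells, with 2.15 and 2.07 for the siRNAs. The siUHRF1 TSA arrays both lay above all 4 mock arrays.

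PSAT1, a transaminase of serine synthesis, was at 5.40 on both siCONT mock arrays, at 5.23 and 4.25 with the siRNAs, at 6.58 and 6.54 with siCONT under TSA and at 5.22 and 4.57 with the siRNAs under TSA. Both arrays with siUHRF1 and TSA lay below the siCONT mock arrays. TSA went with a change of 1.16 (SE 0.35) in siCONT cells and of 0.15 (SE 0.35) in depleted cells (−0.24 under median scaling). In TSA-treated cells siUHRF1 was lower by 1.67 (SE 0.35), 3.18-fold.

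**Figure D2:**
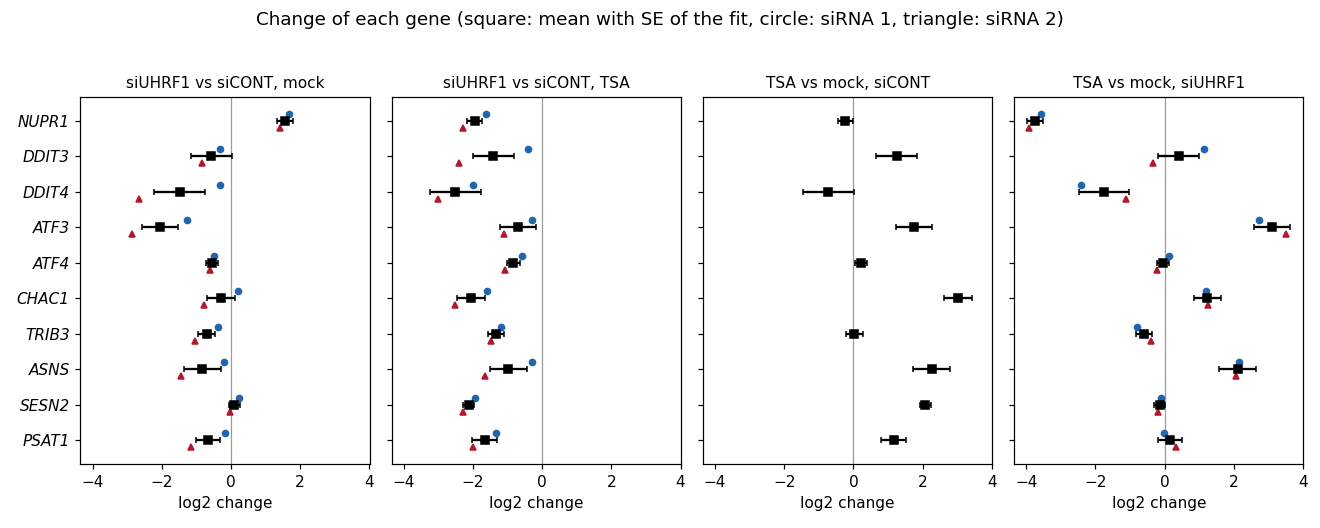
Log2 change of each gene (x axis, brightest probe) in 4 comparisons, with the mean and SE of the fit as squares and bars, siRNA 1 as circles and siRNA 2 as triangles; the siCONT comparison has no siRNA values. All 10 genes lay below 0 for siUHRF1 against siCONT under TSA with both siRNAs.

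Where a gene had several probes, they were compared. The 4 probes of ATF3 lie on chromosome 1 of hg19, and 3 of them moved alike with TSA in siCONT cells, with changes of 1.76, 1.50 and 1.62. The probe A_33_P3214096, at chr1:212792519-212792578, was flat, with a change of −0.17, and levels between −1.79 and −1.12 on the 8 arrays. Probe A_24_P33895 was above background on 1 of the siCONT mock arrays and on neither siUHRF1 mock array, so that its level with TSA in depleted cells was at least 2.28-fold higher. Both CHAC1 probes ran in parallel, with 3.02 and 3.56 for TSA in siCONT cells and −2.06 and −2.29 for siUHRF1 under TSA. For PSAT1 the dimmer probe gave 1.96 beside 1.16 with TSA, and −2.37 beside −1.67 for siUHRF1 under TSA, with a wider spread.

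**Figure D3:**
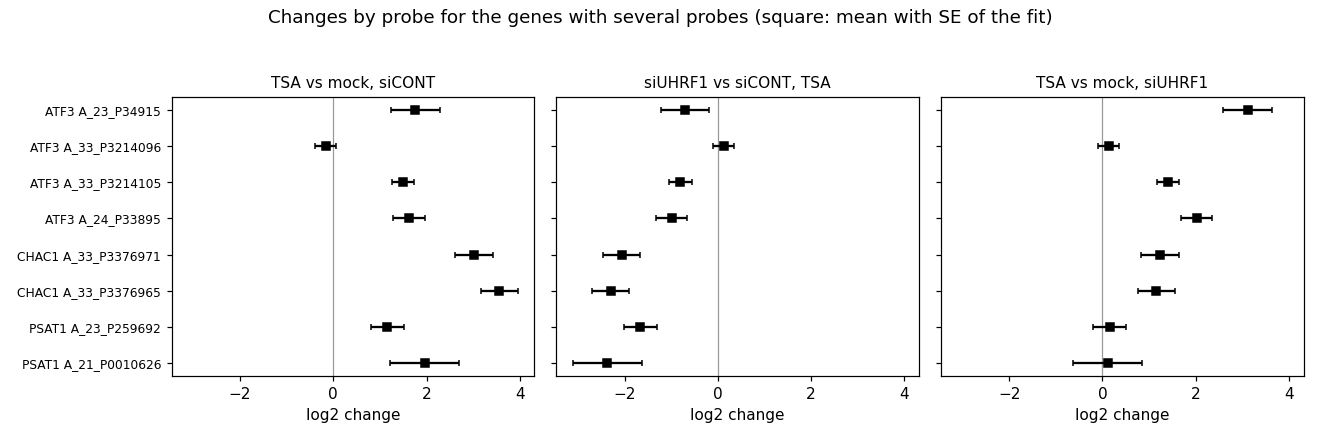
Log2 change (x axis) of each probe of ATF3, CHAC1 and PSAT1 in 3 comparisons, with the mean and SE of the fit as squares and bars. All but A_33_P3214096 of ATF3 lay above 0 with TSA in siCONT cells.

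Counted together, the genes fell into a few patterns. A gene was called where the adjusted p of the fit over all probes was under 0.05 and the change at least 2-fold, and these counts are given as a description beside the share of all tested probes called. With siUHRF1 under mock 1 of 10 genes was called (NUPR1, higher), against 4.11% of all probes (3.13% higher). With TSA in siCONT cells 5 were called, all higher (ATF3, CHAC1, ASNS, SESN2 and PSAT1), against 18.6% (10.4% higher). With siUHRF1 under TSA 5 were called, all lower (NUPR1, CHAC1, TRIB3, SESN2 and PSAT1), against 8.26% (2.87% lower). By the brightest probes the values of all 10 genes were below 0 with both siRNAs. The ATF3 probe A_33_P3214096 gave 0.12, with 0.46 for siRNA 1 and −0.21 for siRNA 2. How many of all probes lay below 0 with both siRNAs was not counted. The comparisons of TSA in siCONT cells and of siUHRF1 under TSA share the siCONT TSA arrays, on which most of the genes were highest.

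With TSA in UHRF1-depleted cells ATF3 and ASNS were called higher and NUPR1 lower, against 20.7% of probes (11.7% higher and 9.01% lower). In the combination against siCONT with mock NUPR1, DDIT4 and TRIB3 were called lower, against 25.6% (11.1% lower). The dimmer CHAC1 probe, A_33_P3376965, was called higher there with 1.27, while the brightest CHAC1 probe, with 0.95, was not called. NUPR1 and SESN2 were called in the interaction, both below 0, against 4.89% (2.07% lower). With the siCONT arrays averaged to 1 sample, the counts of the 6 comparisons, in the order above, were 0, 0, 0, 2, 1 and 0 genes. The shares of all probes then called were 0.0223%, 1.56%, 0.692%, 17.6%, 15.4% and 0% by limma, where 2118 probes passed an unadjusted p under 0.05 in the interaction. The members' median change was −0.62, 1.21, −1.54, 0.05, −0.33 and −0.92 in the same order, beside −0.10, −0.11, 0.00, −0.04, −0.14 and 0.06 for all tested probes.

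Other genes of the pathway were examined through 10 lists of 140 genes, none of them members. These lists, too, were chosen with earlier results of these data known. Their p-values and shares therefore describe the listed genes and are no independent test of the pathway. In siCONT cells TSA changed 32 of 133 tested list genes, of which 21 rose and 11 fell (24.1%, beside 18.6% of all probes). With the 75th percentile taken over detected probes only, 25 rose and 7 fell, beside 2812 and 1434 of 23239 probes. Of 10 amino acid transporters 8 rose and none fell, with a list median of 1.30. The glycine transporter SLC6A9 rose by 2.54 (limma, adjusted p = 0.000731) and the arginine and lysine transporter SLC7A1 by 2.09 (adjusted p = 0.0119). No list gene was called by limma with the siCONT arrays averaged, where TSA in siCONT cells compares 1 sample with 1, although 23 passed an unadjusted p under 0.05. The adjusted p was then 0.0595 for SLC6A9 and 0.192 for SLC7A1.

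The 13 aminoacyl-tRNA synthetase genes (with the tRNA exporter XPOT) had a median of 0.63 with TSA in siCONT cells. Of these 3 rose (23.1%, beside 18.6% of all probes). Among them GARS1 rose by 1.28 (adjusted p = 0.0179) and AARS1 by 1.22 (adjusted p = 0.0226). Of 12 tested amino acid enzymes 2 rose (16.7%). They were CTH, which makes cysteine, with 1.73 (adjusted p = 0.00605) and the mitochondrial PCK2 with 1.54 (adjusted p = 0.00447). The second PCK2 probe gave 0.61.

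The 18 genes for eIF2alpha kinases, its phosphatase and their regulators gave no call by limma with TSA in siCONT cells, also at an unadjusted p under 0.05 (0 genes), and their median was −0.19. Their 4 kinases EIF2AK1, EIF2AK2, EIF2AK3 and EIF2AK4 had changes of −0.47, −0.45, 0.10 and −0.23. Endoplasmic reticulum genes under ATF6 and XBP1 had a median of −0.59, with 3 of 21 lower (14.3%, beside 18.6% of all probes) and none higher. MANF, a secreted folding factor, fell by 1.65 (adjusted p = 0.00332) and CRELD2 by 1.16 (adjusted p = 0.0018). In the promoter windows of the endoplasmic reticulum list 7 of 21 genes held the ERSE, against 0.0916% of all genes. TGATGNAA was held by 5 of 9 transporter genes and 7 of 11 synthetase genes, against 4.46% of all genes. The lists were chosen as genes of these pathways, so the shares only describe them. Whether the elements bear on the changes was not tested.

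Of 17 tested further ATF4 and CHOP targets 3 rose and 2 fell with TSA in siCONT cells (29.4%, beside 18.6% of all probes). The peptide hormone ADM2 rose by 2.15 (adjusted p = 0.0061) and the ATF3 relative JDP2 by 1.90 (adjusted p = 0.00112), although a second ADM2 probe lay at −0.70. NDRG1 fell by 1.74 (adjusted p = 0.00788) and the p53 and CHOP target BBC3 by 1.64 (adjusted p = 0.0045). Immediate early genes fell in 4 of 11 cases (36.4%), with −2.93 for EGR1 (adjusted p = 0.0107) and −2.91 for FOS (adjusted p = 0.0322). Of 14 autophagy genes 2 rose and 1 fell (21.4%). SQSTM1 rose by 1.17 (adjusted p = 0.00714) and MAP1LC3B by 1.14 (adjusted p = 0.00222), and ULK1 fell by 1.12 (adjusted p = 0.00577).

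**Figure D4:**
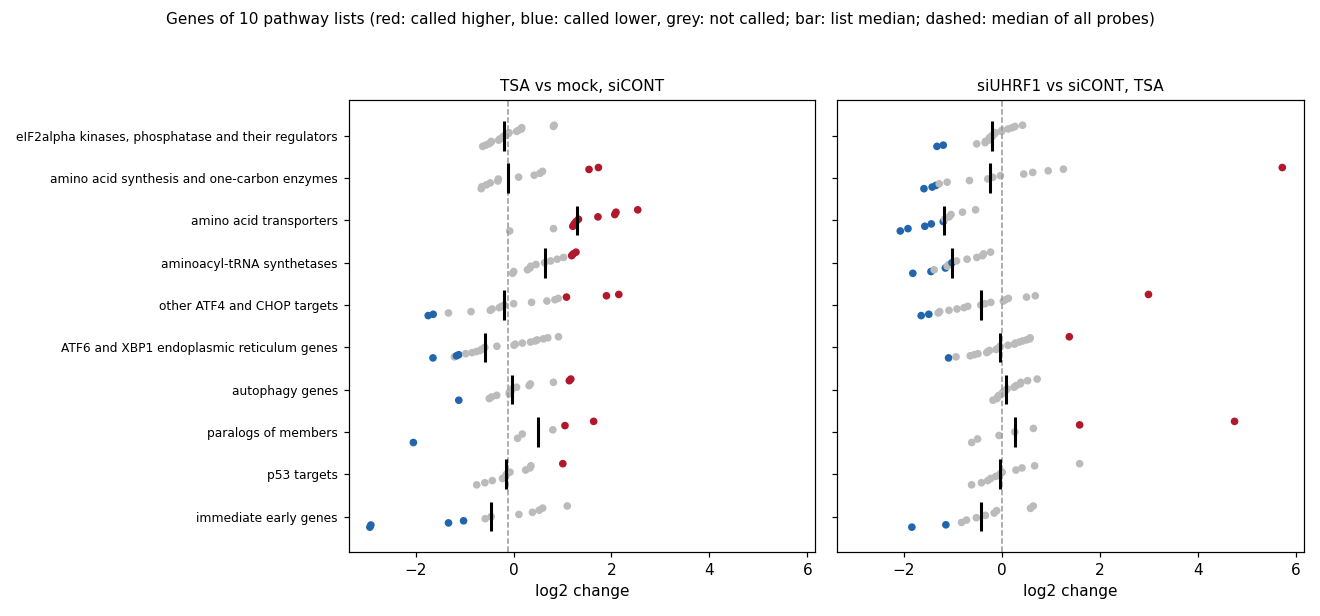
Log2 change (x axis) of each tested gene of 10 pathway lists (y axis) with TSA in siCONT cells and with siUHRF1 under TSA; red and blue mark genes called higher and lower, grey those not called, bars the list medians and the dashed line the median of all tested probes. Most amino acid transporters lay right of the line with TSA in siCONT cells, and all 10 lay left of 0 with siUHRF1 under TSA.

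With siUHRF1 in TSA-treated cells 24 of 135 list genes changed, 5 up and 19 down (17.8%, beside 8.26% of all probes). Of 10 amino acid transporters 5 fell, with a median of −1.18, and SLC6A9 fell by 2.07 (adjusted p = 0.00466) and SLC7A1 by 1.92 (adjusted p = 0.0316). Of the synthetase list 4 of 13 fell, with a median of −1.02, XPOT by 1.82 (adjusted p = 0.0321) and GARS1 by 1.45 (adjusted p = 0.0249). Both regulatory subunits of the eIF2alpha phosphatase fell, PPP1R15A by 1.20 (adjusted p = 0.00785) and PPP1R15B by 1.33 (adjusted p = 0.00848). The ATF4 partner CEBPG fell by 1.49 (adjusted p = 0.0142), ADM2 by 1.65 (adjusted p = 0.0295, 0.37 higher by its second probe) and the folate enzyme MTHFD2 by 1.42 (adjusted p = 0.0387).

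Under median scaling siUHRF1 in TSA-treated cells gave 4 list genes higher and 38 lower, beside 872 higher and 2129 lower of 23844 probes. That scaling moved the median of all probes from 0.00 to −0.35 in this comparison. It moved the median to −0.54 for the combination, to −0.43 for TSA in depleted cells and to −0.28 for the interaction. With the siCONT arrays averaged 1 of these calls remained, CBS, of the cysteine pathway, which was at least 14.7-fold higher with siUHRF1 (adjusted p = 0.00266, and 0.0313 averaged). CBS was not above background on any siCONT array, and a near-identical gene copy may share its probe. The heme oxygenase HMOX1 rose by 2.99 (adjusted p = 0.00511, and 0.0839 averaged).

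Without TSA, siUHRF1 changed 4 of 132 list genes (3.03%, beside 4.11% of all probes). CBS was at least 11.0-fold higher (adjusted p = 0.0092), and PPP1R15B (−1.21, adjusted p = 0.0196), TRIB2 (−1.44, adjusted p = 0.0241) and JUN (−1.70, adjusted p = 0.012) fell. No transporter or synthetase gene was called by limma, and 0 passed an unadjusted p under 0.05, with list medians of −0.05 and −0.27. With the siCONT arrays averaged no list gene was called, and 8 passed an unadjusted p under 0.05.

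In UHRF1-depleted cells, where the comparison rests on the arrays of the different siRNAs, TSA changed 20 of 134 list genes, 14 up and 6 down (14.9%, beside 20.7% of all probes), and 16 were called with the siCONT arrays averaged. Median scaling gave 10 up and 18 down, beside 2033 up and 4721 down of 23912 probes. The transporter list had 1 call, the cystine transporter SLC7A11 (1.78, adjusted p = 0.00825, and 0.0374 averaged), and a median of 0.08. No synthetase gene was called by limma, and 0 passed an unadjusted p under 0.05. HMOX1 rose by 2.82 (adjusted p = 0.00136), CTH by 2.57 (adjusted p = 0.00138), MAP1LC3B by 2.00 (adjusted p = 0.000307, 0.55 by its second probe) and the autophagosome protein WIPI1 by 1.84 (adjusted p = 0.00419). MTHFD1L fell by 1.81 (adjusted p = 0.00365) but 1 of its 3 other probes gave 0.45.

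In the combination against siCONT with mock 29 of 135 list genes changed, 12 up and 17 down (21.5%, beside 25.6% of all probes), and 12 were called with the siCONT arrays averaged. Median scaling gave 6 up and 38 down, beside 2587 up and 5612 down of 23734 probes. The 75th percentile over detected probes gave 14 up and 10 down, beside 4233 up and 1643 down of all probes. HMOX1 rose by 3.36 (adjusted p = 0.000581), CTH by 2.68 (adjusted p = 0.000912) and MAP1LC3B by 1.53 (adjusted p = 0.000534). MTHFD1L fell by 2.25 (adjusted p = 0.00132), MANF by 1.90 (adjusted p = 0.00132) and PPP1R15B by 1.49 (adjusted p = 0.00124). Of the amino acid transporters none was called by limma, 0 passed an unadjusted p under 0.05, and their median was 0.17.

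The NUPR1 paralog NUPR2 moved the other way. It was at 0.06 and 0.03 with siCONT under mock, at −0.06 and −0.14 with the siRNAs, at 0.27 and 0.18 with siCONT under TSA and at 1.86 and 1.77 with the siRNAs under TSA. Only the combination stood apart, 1.77 above siCONT with mock (adjusted p = 0.000191, and 0.0158 averaged). The paralog of DDIT4, DDIT4L, was at −5.85 and −4.94 with the siRNAs under mock, not above background, and at −1.34 and 0.49 with them under TSA, at least 9.04-fold higher (adjusted p = 0.0202). On the siCONT mock arrays it was at −5.45 and −2.04. Of the other paralogs TRIB2 fell by 2.05 with TSA in siCONT cells (adjusted p = 0.00186), where TRIB3 did not differ by more than its spread.

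Genes whose levels ran most like those of NUPR1 were ranked by Pearson correlation over the 8 arrays, as a description. The arrays hold near-duplicate siCONT pairs and so about 6 samples. Of 14632 genes the closest were TFDP1 (r = 0.99), MZT2A, DIDO1, ENTR1, ZCCHC14, CLUH, IRAK1, NDUFAF6, GID8 and ELL3 (r = 0.98). Their amplitude was smaller. TFDP1, the partner of E2F transcription factors, was for instance at 3.45 with siCONT under mock, 3.98 with siUHRF1 under mock, 3.19 with siCONT under TSA and 2.52 with both. None of the other 9 members was close, with r between −0.68 (ATF3) and 0.56 (DDIT4).

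**Figure D5:**
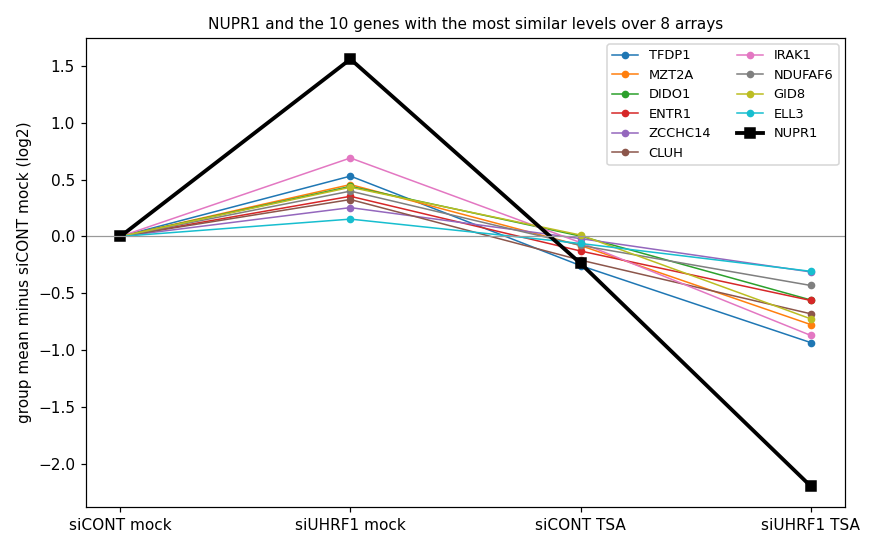
Group means relative to siCONT with mock (y axis, log2) in the 4 groups (x axis) for NUPR1 (thick black line) and the 10 genes most correlated with it over the 8 arrays. All 11 lines are highest with siUHRF1 under mock and lowest with both treatments, and NUPR1 has the widest range, from 1.56 to −2.19.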

How the data were processed

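RNA of DLD1 cells was hybridised to 8 one-colour Agilent arrays, 2 for each of 4 groups taken from the sample labels. The authors extracted the deposited intensity values with Agilent Feature Extraction 10.7.3.1, per the file headers, and probe positions are those of hg19. Their methods name GeneSpring GX and t-tests.

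Here the processed signal, which Feature Extraction had background-subtracted, was taken as log2 relative to the 75th percentile of each array. Control and outlier spots were left out, and spots of a probe were averaged. A probe was tested where it was well above background in a compared group, which gave 24589 fitted probes. A linear model over all 4 groups was fitted (R 4.3.3, limma 3.58.1, eBayes, 4 residual degrees of freedom), with Benjamini-Hochberg adjustment over all tested probes. A call needed an adjusted p under 0.05 and at least a 2-fold change, and unadjusted counts kept the same fold. The fitting scripts were tested on simulated data.

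Where no array of a group measured a probe above background, the fold is a bound, given as at least N-fold. The bound sets the bright group's mean against the dim group's mean of, per array, the higher of the lowest signal among probes well above background and the dim probe's own. A gene with several probes was represented by its brightest probe on average.

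The members and the gene lists were chosen with earlier results of these data known. Named list genes were taken by rule, as up to 2 called genes with the largest rise and up to 2 with the largest fall of each list in each comparison, with probes of a gene that differ in direction, UHRF1, and the 10 genes most correlated with NUPR1 among named probes above background in a whole group. The eIF2alpha kinases and second probes of like direction were added after their values were seen. Promoter windows and their sequences came from RefSeq (GRCh38.p14) and were used for letters only. The number of arrays limits the precision. Alternatives were quantile and median scaling, the 75th percentile over probes detected on all arrays, normexp correction with an offset of 50, other filters on dim probes, the authors' value table, t-tests, a replicate block, averaged siCONT arrays, and leaving out each array.

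Same-numbered siUHRF1 arrays carry the same siRNA under mock and TSA, and their deviations from the group means correlated at r = 0.34 over 19898 probes, while the other pairs of groups gave r between −0.06 and 0.07.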

Additional observations from a re-analysis of the deposited data

Results flagged for a closer look

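The effect of UHRF1 depletion on NUPR1 differed between mock and TSA by −3.51 on the log2 scale, with both siRNAs above siCONT under mock and both below it under TSA. No test of this difference is given, since NUPR1 was chosen with these results known.

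Among the pathway genes the limma test of the interaction gave calls for 7 of 136 genes (5.15%), near the 4.89% of all probes. The interaction is the difference between the effects of siUHRF1 under TSA and under mock. It was −2.39 for the glycine transporter SLC6A9 (adjusted p = 0.0195) and −1.35 for SLC3A2, the heavy chain shared by several amino acid transporters (adjusted p = 0.0473). JDP2 had −1.48 (adjusted p = 0.0345). The difference was above 0 for HMOX1 with 2.45 (adjusted p = 0.0367), for TRIB2 with 2.09 (adjusted p = 0.0288), for NUPR2 with 1.74 (adjusted p = 0.0101) and for the autophagy gene GABARAPL1 with 1.20 (adjusted p = 0.0345). With the siCONT arrays averaged none of the list genes was called by limma, the adjusted p of these 7 lay between 0.329 and 0.529, and 12 list genes passed an unadjusted p under 0.05.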

How the results depend on the processing

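With the siCONT arrays of an agent averaged to 1 sample, the pathway genes called fell to 0 with TSA in siCONT cells, 0 for UHRF1 depletion under mock, 12 for the combination against siCONT with mock, 1 for UHRF1 depletion under TSA and 0 for the interaction. Median scaling gave 44 for the combination and 42 for UHRF1 depletion under TSA. Without a filter on dim probes the counts were 2 for UHRF1 depletion under mock, 13 under TSA and 1 for the interaction, which gave 14 with normexp correction and 11 with a filter on all arrays. The methods' t-test gave 10 for TSA in UHRF1-depleted cells unadjusted and, after Benjamini-Hochberg, 0 there, 0 for UHRF1 depletion under mock, 0 under TSA and 9 for the combination; it was not run for the interaction. The cause of these moves was not tested. Leaving out each array in turn gave 1 to 22 called genes for UHRF1 depletion under mock (22 without siRNA 1 under mock, 1 without a siCONT mock array, 2 without a siCONT TSA array), 15 to 35 for TSA in siCONT cells (15 and 17 without a siCONT TSA array, 18 without a siCONT mock array), 20 to 33 for the combination, 4 to 33 for UHRF1 depletion under TSA (4 without a siCONT TSA array, 15 without a siCONT mock array and 14 without siRNA 2 under TSA), 15 to 25 for TSA in depleted cells and 0 to 24 for the interaction (24 and 16 without siRNA 2 or siRNA 1 under mock, 4 without siRNA 1 under TSA, 0 without either siCONT mock array, 1 and 0 without a siCONT TSA array). Calls over all probes moved too. For UHRF1 depletion under mock they went from 921 to 2146 without siRNA 1 under mock and to 209 without siCONT mock array 1. Under TSA they went from 1970 to 656 without siCONT TSA array 1. They rose to 2076 without siRNA 2 under TSA, where the list count fell. In the interaction they went from 1203 to 136 without siCONT mock array 1. With normexp correction they went to 775, where the list count rose. A replicate block was also set by array number, which is the siRNA number in the siUHRF1 groups and the replicate number in the siCONT groups. The list counts were then 4, 33, 32, 25, 20 and 5 in the order under mock, TSA in siCONT, combination, under TSA, depleted and interaction. No count moved by over 1.5 times. For ATF3 with TSA in siCONT cells the probe A_33_P3214096 gave −0.17, the reverse of the brightest probe. The authors' value table kept 60 of 60 member values and 89 of 89 named results. Dim probes, such as those of CBS and DDIT4L, limit fold changes to bounds.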
